A study of Oncorhynchus mykiss with 24 samples.

Results

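This set holds the array features whose RNA was lower than in vehicle-fed fish in livers of rainbow trout fed estradiol, a high dose of indole-3-carbinol, or either dose of diindolylmethane. Lower is the likely direction of the ratios, and 2 samples had their sign turned, as set out below. A feature here is a pair of neighbouring spots, treated as carrying the same probe. It is named by the number of its first spot, which codes its place on the array. A feature entered the set when its mean log2 ratio to the vehicle pool was -0.6 or less in each of these 4 diets. Of 4368 features, 115 met the rule (2.63%). The members were thus chosen by their measured ratios in those 4 diets. The members' values there are given as a description with no test, and the tests of members concern the other 2 diets. Test calls in the 4 selecting diets are given only for comparison genes that are not members.

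Juvenile trout (Oncorhynchus mykiss, Mt. Shasta strain, 12 to 18 months old) were fed for 12 days and killed for sampling on day 13. Each treatment had 2 tanks of 6 fish. The labels name the compounds by abbreviations, which usually stand for estradiol (E2), β-naphthoflavone (BNF), indole-3-carbinol (I3C) and diindolylmethane (DIM). The diets held 5 ppm of E2, 500 ppm of BNF, either 500 or 1500 ppm of I3C, and either 500 or 1500 ppm of DIM. Every treated liver RNA was set against the same pool of liver RNA from 12 fish fed 0.15% dimethyl sulfoxide, on 2 arrays with the dyes exchanged. There were 2 treated RNA samples per diet, 12 samples and 24 arrays in all. The labels do not say how many fish stand behind a treated sample, and the p-values below measure only how these samples scatter, part of which can be technical. The pool is 1 control sample and adds the same error to every diet.

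In fish liver, estradiol acts through nuclear estrogen receptors and drives hepatocytes to make the egg yolk precursor vitellogenin and eggshell proteins, even in juveniles and males. Indole-3-carbinol, from cruciferous vegetables, condenses in the acid stomach to products that include diindolylmethane, and both are known as estrogen-like agents in trout liver. β-Naphthoflavone is a ligand of the aryl hydrocarbon receptor and a standard inducer of the cytochrome P450 enzyme CYP1A.

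Direction needed care. On all 24 arrays the labels list Cy3 as channel 1, so a positive deposited ratio likely means Cy3 over Cy5, but no label states the numerator; if it was Cy5, every higher below should read lower and every lower higher. In 2 samples, replicate 1 of E2 and replicate 1 of DIM 500 ppm, both arrays were opposed to the rest. Averaging the 2 arrays of a swap leaves the dye bias of a sample, and in these 2 samples it correlated with the bias of the other samples at a median of -0.80 and -0.74, against 0.55 to 0.89 for the remaining samples. The labels do not settle the direction of these 4 arrays, and the rule for members turned their sign. With both samples left out, the rule gave 104 members, 99 of them among the 115. With the signs as deposited it gave 0, and the 115 members then had medians of 0.05 in E2 and 0.0072 in DIM 500 ppm.

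With the signs turned, the members had a median log2 ratio of -0.92 in E2 fish, against 0.030 over all features. The corresponding medians were -1.10 against 0.037 in I3C 1500 ppm, -1.36 against 0.066 in DIM 500 ppm and -1.18 against 0.013 in DIM 1500 ppm. In fold terms the typical member was 1.90-fold lower than the pool in E2, 2.15-fold in I3C 1500 ppm, 2.57-fold in DIM 500 ppm and 2.27-fold in DIM 1500 ppm. In bulk liver RNA, fewer cells of a type and less RNA per cell cannot be told apart. In the 2 diets outside the rule, the members' medians were -0.18 against 0.010 in BNF and -0.47 against 0.032 in I3C 500 ppm. Without the turned samples the E2 median was -0.92 and the DIM 500 ppm median -1.32.

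**Figure D1:**
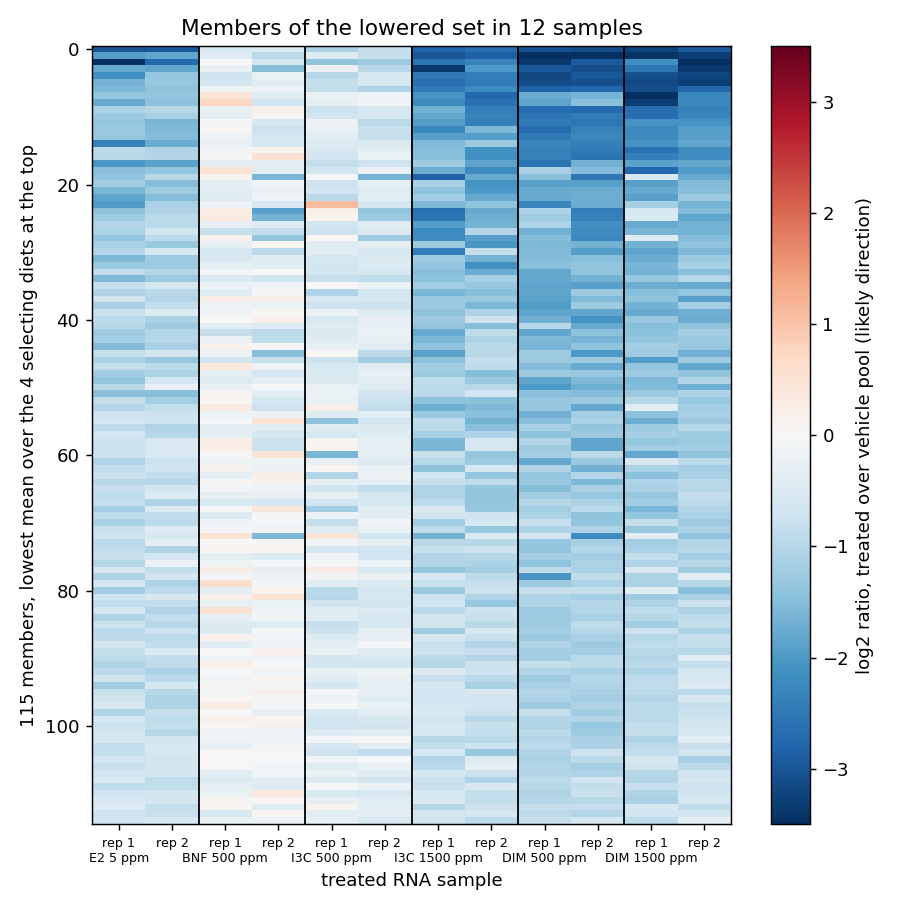
Log2 ratio (colour; treated over vehicle pool, likely direction) of the 115 members (rows, lowest mean over the 4 selecting diets at the top) in the 12 treated RNA samples (columns, 2 per diet). The blue deepens toward the top in both samples of E2, I3C 1500 ppm, DIM 500 ppm and DIM 1500 ppm, while the BNF columns stay near white, with a member median of -0.18.

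Taken singly, the -0.6 mark was met by 3.66% of all features in E2, 5.33% in I3C 1500 ppm, 6.55% in DIM 500 ppm and 4.95% in DIM 1500 ppm. All 115 members lay below 0 in all 8 samples of these diets, against 10.8% of all features. In all 8, 70 members (1.6% of all features) were at -0.6 or less. Any feature at that mark in all 8 samples is a member by definition. The choice of members also fixes much of the count below 0 and of the counts on single arrays that follow. On single arrays, 88 members lay below 0 on all 16 (3.11% of all features), 14 on 15 and 13 on fewer. Averaged over the 4 diets, 12 members lay between -3 and -2, 17 between -2 and -1.5, 44 between -1.5 and -1, and 42 between -1 and -0.6. Just inside the mark, the highest of the 4 means was -0.605 for feature 9040205, -0.611 for 6020413 and -0.612 for 3040303. Just outside it was -0.599 for 6040301, -0.598 for 11020709 and -0.589 for 10020413.

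Only 2 members carry a gene name here, since the annotation used names 49 of the 4368 features. No probe sequence was used here. Members were 4.08% of the named features. The first is col1a2, which encodes the α2 chain of type I collagen, the main fibrillar collagen of connective tissue; the RefSeq gene table lists it as LOC100135811. Its log2 ratios were -0.76 and -0.96 in E2, -0.48 and -0.46 in BNF, and -0.79 and -0.60 in I3C 500 ppm. They were -0.69 and -0.95 in I3C 1500 ppm, -1.23 and -0.88 in DIM 500 ppm, and -1.22 and -0.84 in DIM 1500 ppm. The collagen feature thus lay below the pool in all 12 samples, with the 2 BNF samples closest to it. On single arrays, 3 of 4 were below 0 in BNF and in I3C 1500 ppm. In the limma fit over all 4368 features (Benjamini-Hochberg adjustment), its ratio was -0.70 ± 0.15 (SE, n = 2) in I3C 500 ppm, with an adjusted p of 0.0543, and -0.47 ± 0.15 in BNF, with an adjusted p of 0.560. Neither passed 0.05. Among the alternatives, the I3C 500 ppm value passed without centring, with array weights, with that diet fitted alone and without any 1 sample of E2 or DIM 1500 ppm.

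The other named member, LOC100136258, has no role given in the tables used here. Its log2 ratios were -0.59 and -0.86 in E2, 0.26 and -0.30 in BNF, and 0.28 and -0.56 in I3C 500 ppm. They were -1.36 and -1.22 in I3C 1500 ppm, -0.88 and -1.13 in DIM 500 ppm, and -0.54 and -1.25 in DIM 1500 ppm. Its samples fell on both sides of 0 in BNF and in I3C 500 ppm, and its limma means there were -0.02 ± 0.21 and -0.14 ± 0.21 (SE, n = 2 each; adjusted p 0.988 and 0.818). Its spots disagreed in I3C 500 ppm, with means of -0.54 and 0.25.

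Of 13 extracellular matrix genes listed for comparison, 2 were found, on 3 features. They are col1a2 and the matricellular glycoprotein sparc, which binds collagen. The sparc feature 1020209 had means of 0.41 in E2, -0.05 in BNF, 0.25 in I3C 500 ppm, -0.01 in I3C 1500 ppm, 0.36 in DIM 500 ppm and 0.04 in DIM 1500 ppm. The sparc feature 6020313 had means of -0.08, -0.07, -0.57, -0.39, 0.15 and 0.01 in the same diets. Neither sparc feature was called in limma in any of the 6 diets.

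Marker genes of liver cell types were nearly all without a named feature, and ratios to a pool carry no level, so the labelled tissue could not be checked by level. Of 11 hepatocyte markers, 3 features were found, from ambp, which encodes the precursor of a plasma protease inhibitor, and antiprot1. All 3 were called lower in I3C 1500 ppm, DIM 500 ppm and DIM 1500 ppm, where 5.49%, 7.35% and 5.17% of all features were called lower, and 0 of 3 were called in E2, where 3.64% were. The range of their means was -0.29 to -0.25 in E2, -0.79 to -0.73 in I3C 1500 ppm, -1.11 to -1.01 in DIM 500 ppm and -1.02 to -0.58 in DIM 1500 ppm. It was -0.01 to 0.17 in BNF and -0.61 to -0.16 in I3C 500 ppm, where 0 of 3 were called. Of 4 red cell markers searched by symbol or synonym, 1 was found, LOC100135826, a carbonic anhydrase listed with the synonym CA2. A globin feature listed under another name would have been missed by this search. LOC100135826 averaged -0.75 in E2, -0.75 in I3C 1500 ppm, -0.73 in DIM 500 ppm and -0.51 in DIM 1500 ppm, and was called lower in each. Of the 4 arrays per diet, it was below 0 on 3 in E2, 2 in I3C 1500 ppm, 4 in DIM 500 ppm and 2 in DIM 1500 ppm. It averaged -0.02 in BNF and -0.55 in I3C 500 ppm, without a call. No macrophage marker was found. The part that a change in cell types has in the members' ratios was not tested.

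The lowest member over the 4 selecting diets was feature 9031205. Its log2 ratios were -3.003 and -2.97 in E2, -0.62 and -0.52 in BNF, -1.12 and -0.80 in I3C 500 ppm and -2.77 and -2.63 in I3C 1500 ppm. They were -3.04 and -3.12 in DIM 500 ppm and -3.24 and -2.92 in DIM 1500 ppm. The 8 samples of the 4 selecting diets lay close together and far below those of BNF and I3C 500 ppm. Feature 7040405 was deeper in I3C 1500 ppm and both DIM diets than in E2, and shallowest in BNF and I3C 500 ppm. It stood at -1.92 and -1.83 in E2, -0.44 and -0.93 in BNF, -0.46 and -0.83 in I3C 500 ppm, -2.99 and -2.87 in I3C 1500 ppm, -3.56 and -3.51 in DIM 500 ppm, and -3.42 and -3.29 in DIM 1500 ppm. Feature 3010407 was deepest under estradiol and DIM 500 ppm, at -3.57 and -2.71 in E2 and -3.38 and -2.90 in DIM 500 ppm. Its DIM 1500 ppm samples stood 1 on each side of its I3C 1500 ppm samples, at -2.16 and -3.48 against -2.53 and -2.33.

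The 12 lowest members together ran from -3.14 to -1.05 in E2, with a median of -1.55. Their median was -2.42 in I3C 1500 ppm, -2.92 in DIM 500 ppm and -2.94 in DIM 1500 ppm. In BNF they ran from -0.86 to 0.02, with a median of -0.30, and in I3C 500 ppm from -1.32 to -0.20, with a median of -0.65. By these medians they stood lower in I3C 1500 ppm and both DIM diets than in E2, and higher in I3C 500 ppm than in E2. The 5 members with the widest range over the 4 diets all had E2 as the highest of the 4. Besides 7040405 they were 4020405, with means of -1.49 in E2 and -3.24 in DIM 1500 ppm, 7020301, 7010305 and 1010301. Feature 1010301 averaged -0.999 in E2, -1.83 in I3C 1500 ppm, -2.45 in DIM 500 ppm and -2.29 in DIM 1500 ppm.

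Among the 6 diets, DIM 500 ppm gave the lowest mean for 81 members, I3C 1500 ppm for 17, DIM 1500 ppm for 15 and E2 for 2, features 7010611 and 12030703. The highest mean was that of BNF for 94 members and of I3C 500 ppm for 21. The commonest full order, held by 25 members, was DIM 500 ppm lowest, then DIM 1500 ppm, I3C 1500 ppm, E2, I3C 500 ppm and BNF. The choice of members fixes part of these orders, since BNF and I3C 500 ppm were not required to be low. Among the 4 selecting diets, DIM 500 ppm had the largest share of all features at -0.6 or less (6.55%) and E2 the smallest (3.66%). The part of this spread in the orders was not tested. The place of E2 also depends on the centring, as given below.

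**Figure D2:**
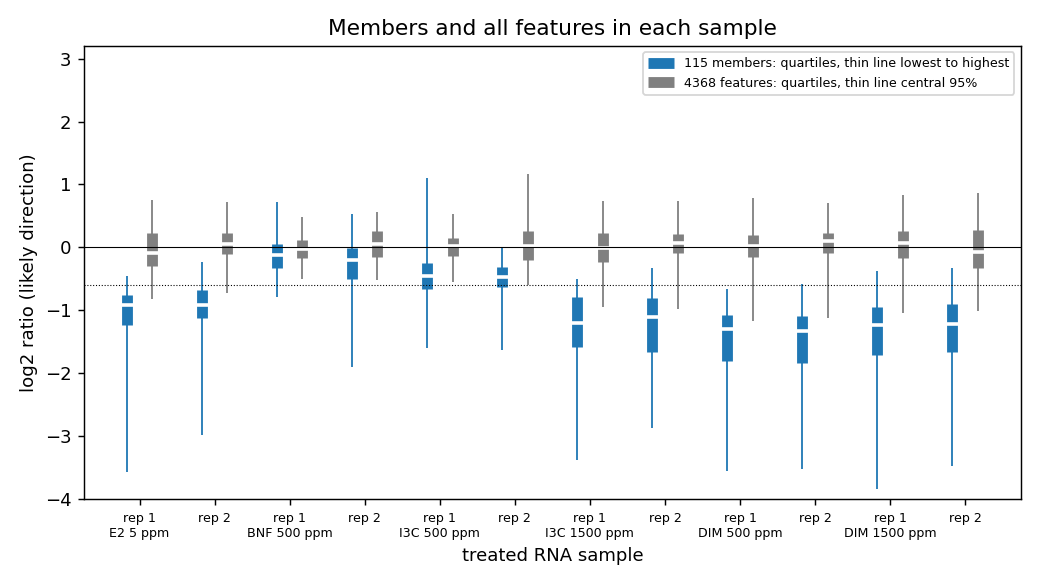
Log2 ratio (likely direction) of the 115 members (blue) and of all 4368 features (grey) in each of the 12 treated RNA samples; thick bars span the quartiles and white ticks mark medians, and the dotted line is at -0.6. Thin lines span lowest to highest for members and the central 95% for all features; member medians were -0.12 and -0.19 in BNF, -0.46 and -0.46 in I3C 500 ppm, and -0.92 or lower in the other 8 samples.

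The 2 doses of each indole were set side by side without a test. For I3C, the difference of 1500 minus 500 ppm had a median of -0.73 over the members, and 114 of 115 were lower at 1500 ppm, against 52% of all features. The exception was 11020301, at -0.66 in I3C 1500 ppm and -0.69 in I3C 500 ppm. Both 1500 ppm samples lay below both 500 ppm samples for 97 members, against 21.5% of all features. Without centring, the members' medians were -0.94 at 500 ppm and -1.23 at 1500 ppm, closer together than with it (-0.47 and -1.10). The uncentred medians of all features were -0.44 and -0.09, so the size of the dose difference depends on the centring. Only the higher I3C dose was part of the rule, which favours this order. For DIM, where both doses were, 1500 minus 500 ppm had a median of 0.16. A total of 95 members were higher at 1500 ppm and 20 lower, against 48.1% of all features lower. Both 1500 ppm samples lay above both 500 ppm samples for 38, against 12.8% of all features, while for 71 the samples overlapped. The lower end of the central 95% of all features was also deeper at 500 ppm of DIM. It was -1.17 and -1.13 there, against -1.04 and -1.01 at 1500 ppm. Replicate 1 of DIM 500 ppm is a turned sample. The part of this spread in the members' DIM difference was not tested.

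**Figure D3:**
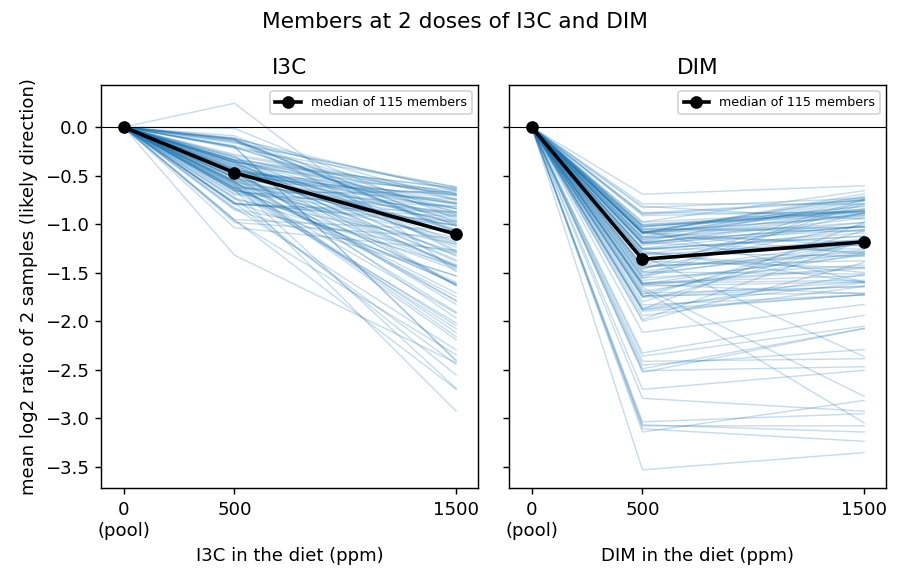
Mean log2 ratio of 2 samples (likely direction) for each of the 115 members (blue lines) at 500 and 1500 ppm of I3C (left) and DIM (right), drawn from the vehicle pool, which is 0 by definition, with the members' median in black. The I3C median lay at -0.47 at 500 ppm and -1.10 at 1500 ppm, and the DIM median at -1.36 and -1.18.

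I3C and DIM, its condensation product, could be compared at matched doses, again as description because the rule used 3 of these 4 diets. At 1500 ppm the difference of I3C minus DIM had a median of 0.11. I3C was the lower of the 2 for 39 members, against 43.9% of all features, and the higher for 76. It was lower by 0.6 or more for 5 members (0.549% of all features), namely 10010303, 3030713, 4030703, 7040603 and 1010413. All 5 had samples that differed by 1 or more in both BNF and I3C 500 ppm. Their DIM 1500 ppm samples also stood apart, such as -0.56 and -1.77 for 10010303. At 1500 ppm I3C was higher than DIM by 0.6 or more for 4 (0.572% of all features), namely 8040411, 4020405, 7020301 and 11040605. At 500 ppm the median of I3C minus DIM was 0.96, and I3C was lower for 0 of 115, against 50.5% of all features. E2 minus DIM 1500 ppm had a median of 0.19, with E2 higher by 0.6 or more for 29 members (1.9% of all features) and lower by as much for 0 (1.63%). E2 minus I3C 1500 ppm had a median of 0.22, with E2 higher by 0.6 or more for 23 members (1.65% of all features). E2 was lower by as much for 3 (1.12%), features 3010407, 12011311 and 5030409. Without centring, the members' medians were -1.29 in E2, -1.23 in I3C 1500 ppm and -1.20 in DIM 1500 ppm. The E2 median was then the lowest of these, so the order of E2 against these diets depends on the centring.

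Some of the widest differences rest on samples of 1 diet that stood apart from each other. In DIM 1500 ppm, 7020301 had -3.84 and -2.26, against -1.74 and -1.61 in DIM 500 ppm. It is 1 of 3 members, with 4030603 and 12030405, that were lower by 0.6 or more at the higher DIM dose (0.664% of all features), while 8 members were higher by as much (0.366% of all features). For 3030713, the samples were -2.61 and -1.77 in I3C 1500 ppm and -0.62 and -1.51 in DIM 1500 ppm.

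I3C at 500 ppm was not used to choose the members, but its pool is the one the selecting diets used. Any pool error that helped to choose the members also lowers them here. The counts against all features therefore cannot alone show that the set extends to this diet. Of the 115 members, 13 fell at adjusted p under 0.05 in limma (11.3%), against 0.343% of all features, and 0 rose, against 0.412% of all features. At an unadjusted p under 0.05, 78 members were lower, against 6.62% of all features. That count was 48 without replicate 1 of this diet (3.71% of all features), 51 without replicate 2 (3.09%), 23 with the arrays scaled to 1 spread (1.85%) and 29 from Cy3 arrays alone (2.11%). A mean of -0.6 or less was held by 33 members, against 1.21% of all features. Both samples were below 0 for 102 members, against 28% of all features. The members' estimates carried a median 95% half-width of 0.36 on the log2 scale, from 0.29 to 0.96.

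Feature 7020407 stood at -0.84 and -1.09 in I3C 500 ppm and fell there by 0.97 on the log2 scale (SE 0.15, n = 2, limma adjusted p 0.0054). Its BNF samples were -0.19 and -0.23. Feature 9031205, the lowest member above, fell by 0.96 on the log2 scale (SE 0.14, n = 2, limma adjusted p 0.0050). Feature 6010413 stood at -0.80 and -0.88 in I3C 500 ppm, with a limma adjusted p of 0.0170, and at -0.51 and -0.66 in BNF. Feature 3010407 had the lowest I3C 500 ppm mean of the set, -1.32, from samples of -1.38 and -1.26 (limma adjusted p 0.0357). The other 9 were 8010305, 11030303, 8040603, 4020405, 12010303, 11020301, 12030703, 7020303 and 5010309, with means from -1.04 to -0.66 and limma adjusted p from 0.0342 to 0.0460. All 13 were at -0.6 or less in both I3C 500 ppm samples. On the 4 single arrays of this diet, 9 were below 0 on all 4 and 3 on 3 arrays. Feature 11020301 was below 0 on 2. It had 0.02 and 0.16 with treated RNA in Cy3, and -1.40 and -1.53 with treated RNA in Cy5. None of the 13 has a gene name here.

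The count of 13 depended on single libraries and on scaling. It was lower without either sample of I3C 500 ppm, of DIM 500 ppm or of I3C 1500 ppm, in fits that leave 1 sample in that diet. It was 0 with the arrays scaled to 1 spread or with the deposited signs, whereas without centring it was 101, with 18.5% of all features then called lower. The deposited signs changed no I3C 500 ppm value, only the error that the fit pools over all samples. The count also moved with the dyes. With treated RNA in Cy5 the members' medians on the 2 I3C 500 ppm arrays were -0.92 and -0.92, against 0.03 and -0.13 with treated RNA in Cy3. The members' mean dye part, which cancels between the 2 arrays of a swap, had a median of 0.31, against 0.08 over all features. After that part was taken off each array, the medians were -0.60 for Cy5 alone and -0.34 for Cy3 alone, and 2 and 1 members were called. The part of the dye in the calls was not tested further.

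At the other end, 1030705 had the highest I3C 500 ppm mean of the set, 0.24, from samples of 1.11 and -0.62. The next highest were 1040603, 1040407, 1020413 and 3011303, whose means ran from -0.12 to -0.01 in I3C 500 ppm, and from -1.44 to -1.02 in DIM 500 ppm. Over the 115 members, the 2 samples of I3C 500 ppm correlated at 0.0031 and those of BNF at -0.01, whereas in the 4 selecting diets the correlation was 0.65 to 0.78. Members of 1 array share libraries, and this is a description across features. Over all features the 2 samples correlated at 0.37 in I3C 500 ppm, 0.16 in BNF and 0.46 to 0.85 in the 4 selecting diets. The rule chose the members by the selecting diets, so the members' higher correlations there are not a like comparison. Members with samples far apart, such as 1030705, also enter these values. How far the order of the other members was shared between samples was not tested.

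BNF, the aryl hydrocarbon receptor ligand, left the members nearest to the pool. In limma, 0 of 115 were called lower (0% of all features) and 0 higher (0.0458% of all features). Both samples were below 0 for 62 members, against 25.9% of all features. At an unadjusted p under 0.05, 25 members were lower, against 3.14% of all features. That count was 11 without BNF replicate 2 (1.81% of all features) and 11 from Cy5 arrays alone (1.28%). A mean of -0.6 or less was held by 10 members, against 0.733% of all features. BNF shares its pool with the selecting diets, so any pool error that helped to choose the members lowers them here too. The lowest were 4020413 and 6030205, both at -0.86, 4020309 at -0.85, 3030713 at -0.82 and 5011307 at -0.81. Their samples agreed for 6030205, at -0.79 and -0.92, and for 5011307, at -0.77 and -0.85. They stood far apart for 4020413, at -0.23 and -1.49, and for 3030713, at 0.26 and -1.89. The highest BNF means were 0.32 for 8010305, 0.28 for 3020309, 0.24 for 1010301 and 0.21 for both 7020303 and 5010201. Of all members, 4 were at -0.6 or less in all 6 diets, 7040405, 10010303, 5011307 and 11030303. Feature 11030303 was so in every sample, with -0.67 and -0.81 in BNF.

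The estimate of I3C 500 minus BNF 500 ppm uses neither a selecting diet nor the pool, which cancels, and both compounds were given at the same dose. The p-values of this difference still take their error from all 12 samples, those of the selecting diets included. The median difference was -0.24 over the members and 0.0010 over all features, with a range of -1.25 to 0.62 for single members. The mean was lower in I3C for 94 members (81.7%), against 49.7% of all features. Both I3C samples lay below both BNF samples for 60 members (52.2%), against 19.8% of all features, and above them for 5 (4.35%), against 14.9%. At an unadjusted p under 0.05, 23 members were lower in I3C, against 2.52% of all features, and 0 were higher, against 3.34%. Without I3C 500 ppm replicate 1, 14 were lower (1.81% of all features). These values also moved with the dye and the scaling. From Cy3 arrays alone the median was -0.084, 68 members were below 0 (53% of all features) and 4 were lower at an unadjusted p under 0.05 (3.21%). From Cy5 arrays alone the median was -0.44, with 95 below 0 (42.6%) and 26 lower (4.4%). With the arrays scaled to 1 spread it was -0.16, with 79 below 0 (48.6%) and 9 lower (2.2%).

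After adjustment over all features, limma called 0 members in either direction, against 0.0229% of all features lower and 0.137% higher in I3C. The nearest was 8010305, at -0.99 and -0.61 in I3C 500 ppm and 0.15 and 0.48 in BNF, a difference of -1.11 ± 0.22 (SE, n = 2 each, limma adjusted p 0.0613). The largest was that of 7020303, at -1.42 and -0.66 in I3C 500 ppm and -0.04 and 0.47 in BNF, a difference of -1.25 (limma adjusted p 0.187). The 95% half-width of a member's difference had a median of 0.50, wider than the typical difference. For col1a2 the difference was -0.23 ± 0.22 (SE, n = 2 each, limma adjusted p 0.996), and for LOC100136258 it was -0.12 ± 0.30 (limma adjusted p 0.996). Among the marker genes, the difference was -0.71 and -0.73 for the ambp features, -0.15 for antiprot1 and -0.53 for LOC100135826 (limma adjusted p 0.375, 0.344, 0.996 and 0.667). Their part in the members' difference was not tested.

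**Figure D4:**
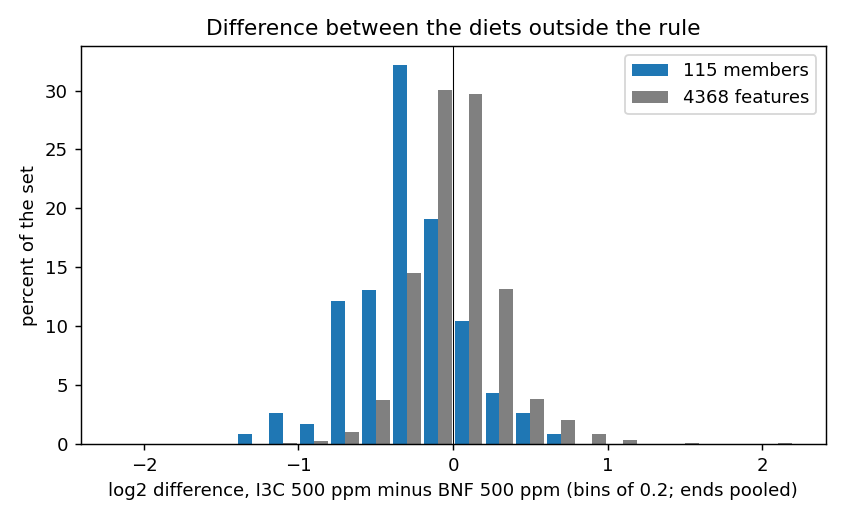
Percent of the 115 members (blue) and of all 4368 features (grey) in bins of 0.2 of the log2 difference I3C 500 ppm minus BNF 500 ppm, the diets outside the rule. The members sit to the left of all features, with medians of -0.24 and 0.0010.

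The members were spread over the array but not evenly over the rows of its print blocks. They lay in 43 of 48 blocks, with at most 6 in a block of 91 features, and 6 had another member beside them. Rows 3 and 4 of the blocks held 47 members (40.9%), against 15.4% of all features, and rows 8 to 12 held 11 (9.57%), against 38.5%. Of the 13 members called in I3C 500 ppm, 10 lay in rows 3 and 4. No source used here says what the rows stand for, and the part of position in the members' ratios was not tested. With each print block centred, 7 members were called in I3C 500 ppm, but this centring leaves differences between the rows of a block in place.

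**Figure D5:**
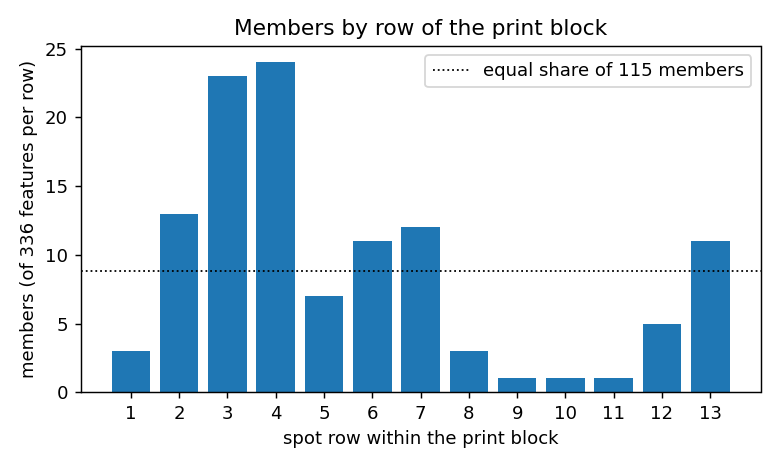
Number of members in each of the 13 spot rows of a print block, summed over the 48 blocks, with a dotted line at an equal share. Rows 3 and 4 held 23 and 24 members, and rows 9 to 11 held 1 each.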

How the data were processed

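Liver RNA of 12 treated samples was measured on 24 arrays in 2 colours, per the labels with a ScanArray instrument and QuantArray. The authors deposited 1 value for each of 8736 spots per array, with 0 missing: 23 columns are log ratios by their values, taken here as log2, and 1 deposited column (BNF replicate 1, treated RNA in Cy5) is a linear ratio with a median of 1.01, converted to log2 here. If the logs were natural, every change would be larger. The sources used here give no background correction, normalisation or log base. Signals were not used here, so dim spots could not be filtered, and the number of arrays limits the precision.

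Each array was centred on its median, spot pairs were averaged (correlation within pairs 0.41 to 0.94, median 0.87), and a sample's value was the difference of its dye-swapped arrays divided by 2, with 2 samples turned. Diet means were fitted with limma 3.58.1 in R 4.3.3 over all 12 samples, against 0 or against each other, with Benjamini-Hochberg adjustment over 4368 features; the fit was tested on simulated data. The members, the gene lists and the rule for named features were chosen with earlier results of these data known. Named were members with a symbol, the 12 lowest, the 5 lowest and 5 highest in BNF and in I3C 500 ppm, the 5 of widest range, those nearest the threshold and those called; others named in counts of 5 or fewer were chosen after their values were seen. Of 33 Entrez genes on the array, 27 were in the RefSeq gene table (USDA_OmykA_1.1), used for names only. Deviations of same-numbered samples correlated at -0.60 to 0.46 over 15 pairs of diets, 6 of them above 0.1; since the others were not, the numbers were not taken to pair samples.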

Additional observations from a re-analysis of the deposited data

How the results depend on the processing

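The rule gave 179 members without centring, 0 with the signs as deposited and 103 to 122 with 1 sample left out. The members' median in BNF was -0.53 without centring and -0.19 to -0.12 with 1 sample left out. In I3C 500 ppm it was -0.94 without centring, -0.33 with arrays scaled alike, -0.46 with print blocks centred, -0.46 and -0.51 from odd and even spots, -0.34 and -0.60 from Cy3 and Cy5 arrays alone, and -0.47 to -0.46 with 1 sample left out. Without centring, 16 members were called lower in BNF (0.893% of all features), against 0 with any 1 sample left out, and the medians of all features were -0.34 in E2, -0.34 in BNF and -0.44 in I3C 500 ppm. Members called lower in I3C 500 ppm numbered 101 without centring (18.5% of all features), 0 with arrays scaled alike (0%), 7 with print blocks centred (0.298%), 3 from odd spots (0.0687%), 6 from even spots (0.183%), 0 with deposited signs (0%), 8 without the turned samples (0.206%), 1 from Cy3 arrays alone (0.0229%), 2 from Cy5 arrays alone (0.0458%), 46 with the diet fitted alone (1.9%), and 3 to 15 with 1 sample left out. Members lower in I3C 500 ppm minus BNF numbered 1 with array weights and 0 to 1 with 1 sample left out. With the replicate number as a block, 11 members were called lower in I3C 500 ppm, against 13 without it; the counts of 0 members called in BNF and in I3C 500 ppm minus BNF stayed at 0, while the features called lower in that difference numbered 2 with the block, against 1 without it. With the deposited signs, 0 members were lower at an unadjusted limma p under 0.05 in all 3 comparisons. The shares of all features were small too, at 0.733% in BNF, 1.35% in I3C 500 ppm and 0.71% in their difference. The members' medians were then unchanged, at -0.18 in BNF, -0.47 in I3C 500 ppm and -0.24 in their difference, since none of these samples was turned. Only the error changed, which the fit pools over all 12 samples. None of the 13 called features changed sign under the 24 alternatives, but each lost its call in some. The call was lost in 4 alternatives for 7020407 and in up to 17, for 11020301 and 5010309. The col1a2 difference was 0.00077 from even spots. LOC100136258 turned positive in BNF with arrays scaled alike (0.020), print blocks centred (0.046), odd spots (0.071) and Cy5 arrays alone (0.16), and in I3C 500 ppm from even spots (0.25) and Cy3 arrays alone (0.16), where its difference was 0.36 and 0.36. With 1 sample left out it ran from -0.30 to 0.26 in BNF, from -0.56 to 0.28 in I3C 500 ppm and from -0.55 to 0.30 in their difference. Fewer samples widen the error; the cause of the other changes was not tested.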

Other observations

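A few members differed more between the 2 samples of a diet than most, and they were picked out after their values were seen. In 6 members, 10010303, 3030713, 4030703, 7040603, 1010413 and 1040405, replicate 1 was above replicate 2 by 1 or more on the log2 scale in both BNF and I3C 500 ppm. In BNF the 6 ran from 0.09 to 0.50 in replicate 1 and from -1.89 to -0.72 in replicate 2. In I3C 500 ppm they ran from -0.04 to 0.41 in replicate 1 and from -1.62 to -0.67 in replicate 2. In DIM 1500 ppm they ran from -0.62 to -0.37 in replicate 1 and from -1.81 to -1.21 in replicate 2. In DIM 500 ppm they ran from -1.51 to -0.67 in replicate 1 and from -2.51 to -1.79 in replicate 2. The order was the other way in all 6 in the remaining diets. In I3C 1500 ppm they ran from -2.82 to -1.66 in replicate 1 and from -1.91 to -0.50 in replicate 2, and in E2 from -1.40 to -0.70 and from -1.05 to -0.57. The median of all members differed little between the samples of a diet, at -0.12 and -0.19 in BNF, -0.46 and -0.46 in I3C 500 ppm, -1.20 and -1.11 in I3C 1500 ppm, and -1.23 and -1.21 in DIM 1500 ppm. The 3 members that were lower by 0.6 or more at the higher DIM dose, 7020301, 4030603 and 12030405, ran from 0.46 to 0.73 in BNF replicate 1 and from -0.69 to -0.40 in BNF replicate 2. In DIM 1500 ppm they ran from -3.84 to -2.75 in replicate 1 and from -2.27 to -1.99 in replicate 2. None of these 9 features has a gene name here, and whether some carry the same transcript was not tested.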
